A study of Mus musculus with 3 samples.

Results

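The 10 immediate early genes Fos, Fosb, Jun, Junb, Atf3, Egr1, Ier2, Nr4a1, Dusp1 and Zfp36 were described in cells dissociated from kidney glomeruli. They were taken by gene symbol and make up 10 of the 31058 rows of the deposited gene tables, and each was counted in all 3 libraries. The libraries came from a male mouse, a female mouse and a female RPC-ERαKO mouse (here female ERaKO), with 1 mouse and 1 library (n = 1) in each group. All were healthy C57Bl/6 animals. Their shared genotype was Pax2.rtTA;TetO.Cre;R26.Confetti, to which the third mouse added ERalphaKO, a knockout of oestrogen receptor alpha. Doxycycline was given to all of them at 20 days of age and the labelled cells were followed until 90 days of age. In this system Cre is made only under doxycycline in cells that use the Pax2 promoter, so recombination is limited to those cells and their descendants. Counts are unique molecular identifiers (UMIs, single RNA molecules) from the 3′ ends of transcripts, and values below are listed in the order male, female, female ERaKO.

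Immediate early genes are switched on within minutes of a stimulus, without new protein synthesis, by kinase cascades that act on transcription factors already present in the cell. Fos, Fosb, Jun and Junb encode subunits of the dimeric transcription factor AP-1, and their RNAs decay fast. In kidney the same genes respond to growth factors, to injury and to the enzymatic digestion that releases single cells, so their level in a cell suspension is not taken as their level in intact tissue.

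Promoters of these genes often carry short elements read by factors that are already in the cell, which is why 4 stretches are shown before the values. The set used here held 32851 RefSeq promoters of GRCm38.p6, each 300 bases long (250 before the start and 50 after it). It held 8 of the 10 genes. Promoters of Egr1 and Ier2 were not in the set and were not searched, so the motif counts do not describe them. Shares of all promoters refer to this set and not to every promoter of the genome. The searched motifs were the cyclic AMP response element (CRE, TGACGTCA), its core TGACG, the AP-1 element TGANTCA and the serum response element CArG, all on both strands, and TATAA on the forward strand. The CRE core is part of the full CRE, so these matches overlap. Capitals mark matches to the CRE, its core or CArG. The positions are counted from the RefSeq start, base -1 being the last before it.

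Fos, chr12:85473640-85473889, plus strand, bases -250 to -1: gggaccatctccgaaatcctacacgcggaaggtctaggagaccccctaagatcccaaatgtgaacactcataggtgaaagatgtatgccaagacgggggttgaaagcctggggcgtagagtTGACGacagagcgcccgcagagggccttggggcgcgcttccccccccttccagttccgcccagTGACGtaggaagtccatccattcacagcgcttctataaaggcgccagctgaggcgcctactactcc
Nr4a1, chr15:101266596-101266845, plus strand, bases -250 to -1: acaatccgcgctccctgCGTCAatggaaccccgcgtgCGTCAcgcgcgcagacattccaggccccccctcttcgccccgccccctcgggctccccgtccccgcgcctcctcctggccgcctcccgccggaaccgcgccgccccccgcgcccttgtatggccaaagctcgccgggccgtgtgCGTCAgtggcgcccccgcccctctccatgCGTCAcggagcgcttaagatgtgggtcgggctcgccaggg
Dusp1, chr17:26508523-26508722, minus strand, bases -250 to -51: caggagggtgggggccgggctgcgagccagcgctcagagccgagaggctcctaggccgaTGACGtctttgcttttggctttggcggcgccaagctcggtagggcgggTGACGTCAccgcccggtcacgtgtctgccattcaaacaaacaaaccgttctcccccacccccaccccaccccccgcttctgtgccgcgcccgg
Zfp36, chr7:28379267-28379296, minus strand, bases -68 to -39: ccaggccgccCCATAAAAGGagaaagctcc

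The Fos stretch lies outside annotated genes of GENCODE M21. Those of Nr4a1 and Dusp1 lie within an intron of a longer transcript of the same gene. That of Zfp36 lies in an annotated exon, within the spans of Zfp36 and of an antisense gene, Gm44710. Which gene the exon belongs to was not determined. The CRE core was present in 6 of 8 promoters of these genes (Fos, Fosb, Junb, Atf3, Nr4a1 and Dusp1) and in 20.8% of all promoters. Nr4a1 had 4 copies and Fos had 2. Dusp1 matched the core at bases -191 to -187 and, on both strands, inside its full CRE at -143 to -136. The full CRE was found in Dusp1 (1 of 8, against 1.79% of all promoters) and CArG in Zfp36 (1 of 8, against 1.63%). The AP-1 element was in 0 of 8 against 7.81%, and TATAA was in 2 of 8, Fos and Junb, against 17.5%. The TATAA match of Fos began at base -33, before the start, and that of Junb at base 0, the start itself. The searched promoters of these genes held 58.7% to 72.3% G and C bases, against a median of 52.7% over all promoters of the set. The shares were not matched for this, and its part in them was not tested. A match describes letters in this window and is no evidence of binding.

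The libraries held 3555 to 4244 barcodes and 44585342 to 47522141 UMIs. Of the barcodes, 21.0%, 17.7% and 34.0% had more than 25% mitochondrial UMIs and were left out, and after further filters 3224, 2828 and 2520 cells were kept. Pairs of libraries shared 4 to 8 barcodes, of which 1 to 4 were kept in both. The knockout could not be checked on Esr1: 69, 60 and 94 cells held a UMI, which part of the gene was deleted is not given in the sources used here, and a 3′ tag outside it would still be counted. Cells were clustered without the immediate early and heat shock genes and 7 classes with at least 30 cells in each library were named from marker lists, so a class stands for podocyte-like cells and so on. The classes were podocytes (1309, 1518 and 905 cells), which wrap the glomerular capillaries, endothelial cells (778, 687 and 501), parietal epithelial cells of Bowman's capsule (119, 76 and 215) and mesangial cells, which hold the capillary loops (192, 51 and 151). Smooth muscle and renin cells (289, 157 and 248), macrophages (91, 70 and 54) and proximal tubule cells (96, 85 and 177) completed them. Statements below on the highest or lowest class, or on all other classes, are among these 7. The clusters of these classes each had 4 to 10 of their markers at least 2-fold above the mean of the other clusters.

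The summed level of the 10 genes was highest in parietal epithelial, endothelial, macrophage and smooth muscle cells and lowest in proximal tubule cells. Levels are UMIs per 1000000 UMIs of a class in a library (CPM). Parietal epithelial cells held 12538, 7526 and 11782 CPM, endothelial cells 11248, 8438 and 8536 CPM, and macrophages 7619.9, 9637 and 8735 CPM. Smooth muscle and renin cells held 9669, 10190.0 and 4988.5 CPM. Podocytes held 5883, 4193 and 5961 CPM, mesangial cells 4791, 3640.1 and 6273 CPM, and proximal tubule cells 2363, 3758 and 3125 CPM. With classes ordered by their mean log2 level, the ranges over libraries of all 6 pairs of neighbours overlapped, while the geometric mean of the highest class was 3.42-fold that of the lowest. The place of proximal tubule cells depended on the filter: their mean over libraries was 3082 CPM, and with a mitochondrial limit of 10% it was 5052 CPM, above mesangial cells (4995) and podocytes (4763). It was 4710.4 CPM with each cell classed on its own by its marker score, below mesangial cells (4980.5) and podocytes (5016). Fos and Jun alone gave 52.8% to 58.3% of the sum in podocytes and 23.2% to 28.8% in macrophages.

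**Figure D1:**
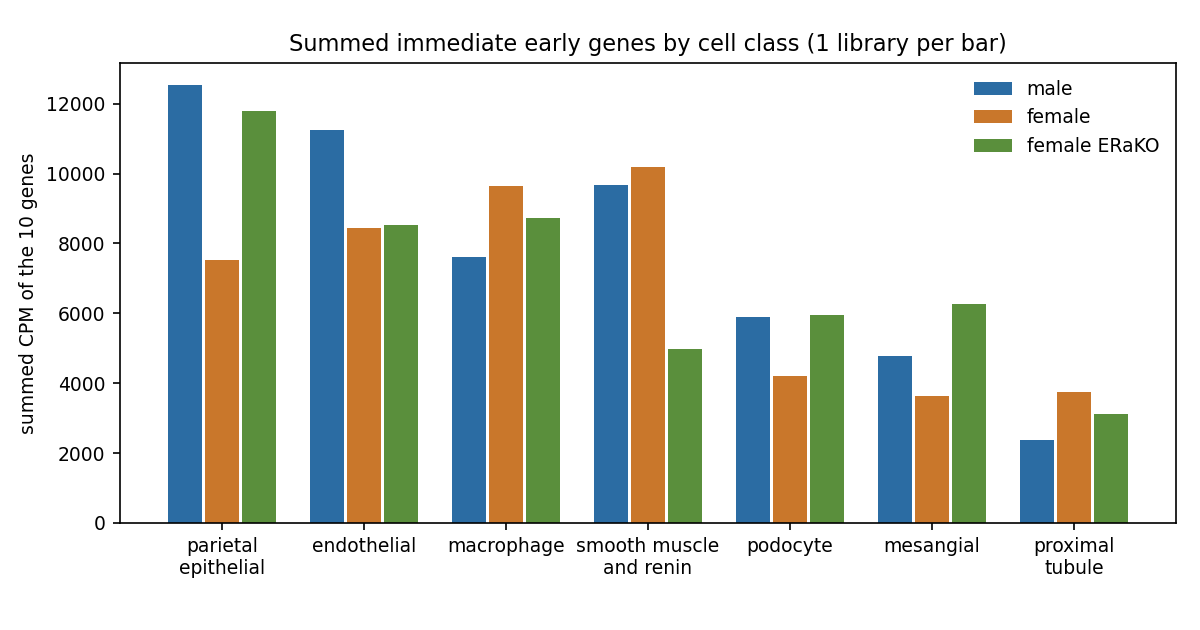
Summed CPM of the 10 immediate early genes (vertical axis) in 7 cell classes (horizontal axis), with 1 bar per library and no error bar because each group is 1 mouse. Proximal tubule bars lie between 2363 and 3758 CPM, and the female ERaKO bar of smooth muscle and renin cells, at 4988.5 CPM, lies below the other two of that class.

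Fos, whose protein pairs with Jun proteins to form AP-1, had its highest levels in parietal epithelial cells (3595, 1749.5 and 3325 CPM) and in smooth muscle and renin cells (3162, 3730.5 and 1549.4 CPM). The low value was that of the female library in the first class and of the female ERaKO library in the second. Endothelial cells held 1636 to 2293 CPM, macrophages 1123 to 1799.5, podocytes 1023 to 1458 and mesangial cells 760 to 1458. Proximal tubule cells, at 298, 483 and 536 CPM, lay below every other class without overlap. Fosb, a second AP-1 subunit, was more even: smooth muscle and renin cells held 482 to 963 CPM and mesangial cells, the lowest class, 136 to 395 CPM, and the ranges of all neighbouring classes overlapped.

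Jun, the partner of Fos in AP-1, was highest in endothelial cells with 3609, 2403 and 2986 CPM. Parietal epithelial cells followed with 1738 to 2730.5 CPM, and smooth muscle and renin cells, podocytes and proximal tubule cells lay between 1084 and 2255 CPM. Macrophages (648, 897 and 1066 CPM) and mesangial cells (605, 664 and 1238 CPM) were lowest. The proximal tubule range of Jun overlapped with that of podocytes. Junb, a related subunit, showed another order. Macrophages held 1742.5, 1730.3 and 1867 CPM, above all other classes, and proximal tubule cells held 102, 158 and 170 CPM, below all of them. Podocytes were the next lowest class with 418, 418 and 772 CPM, without overlap with proximal tubule cells.

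Atf3, a stress-induced factor of the same leucine zipper family, separated 2 classes from the rest. Macrophages held 996, 1112 and 1099 CPM and parietal epithelial cells 1418, 451 and 1137 CPM, while the other 5 classes held 56.6 to 399 CPM. The female parietal epithelial value was the low one of its class but lay above every value of those 5 classes. Mesangial cells (75.9, 56.6 and 81.6 CPM) and proximal tubule cells (81.3, 72.6 and 68.7 CPM) were lowest and overlapped.

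Egr1, a zinc finger factor induced by serum and by mitogens, was highest in parietal epithelial cells with 1604.5, 1246 and 1529.6 CPM, without overlap with the next class. Endothelial cells held 557 to 968 CPM and smooth muscle and renin cells 327 to 882. Proximal tubule cells held 82.1, 203 and 199 CPM, below all other classes. Nr4a1, an orphan nuclear receptor, had the widest differences. Macrophages held 577, 781 and 424 CPM and smooth muscle and renin cells 238, 266 and 109 CPM. Endothelial cells followed with 143, 137 and 118 CPM and podocytes with 43.2, 23.4 and 44.9 CPM. In proximal tubule cells 4, 0 and 5 UMIs were counted in all, and the count of 0 in the female library allows up to 1.80 CPM. Ier2, which encodes a small nuclear protein, was highest in endothelial cells (644, 512 and 552 CPM) and nearly equal between libraries in parietal epithelial cells (365, 364 and 371 CPM).

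Dusp1 and Zfp36 act as brakes: the Dusp1 phosphatase inactivates MAP kinases, and the Zfp36 protein (tristetraprolin) binds AU-rich elements and speeds the decay of RNAs that hold them. Dusp1 was among the more even genes, with 831, 634 and 1016 CPM in mesangial cells, 894, 710 and 717 CPM in endothelial cells and 260, 314 and 223 CPM in proximal tubule cells. Mesangial cells, the lowest class for Fosb, Jun and Atf3, were highest for Dusp1, although their range overlapped with endothelial cells and macrophages. Zfp36 was highest in macrophages (579, 941 and 688 CPM), without overlap with any other class, and lowest in podocytes (62.2, 91.2 and 87.0 CPM) and proximal tubule cells (86.7, 127 and 92.4 CPM).

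**Figure D2:**
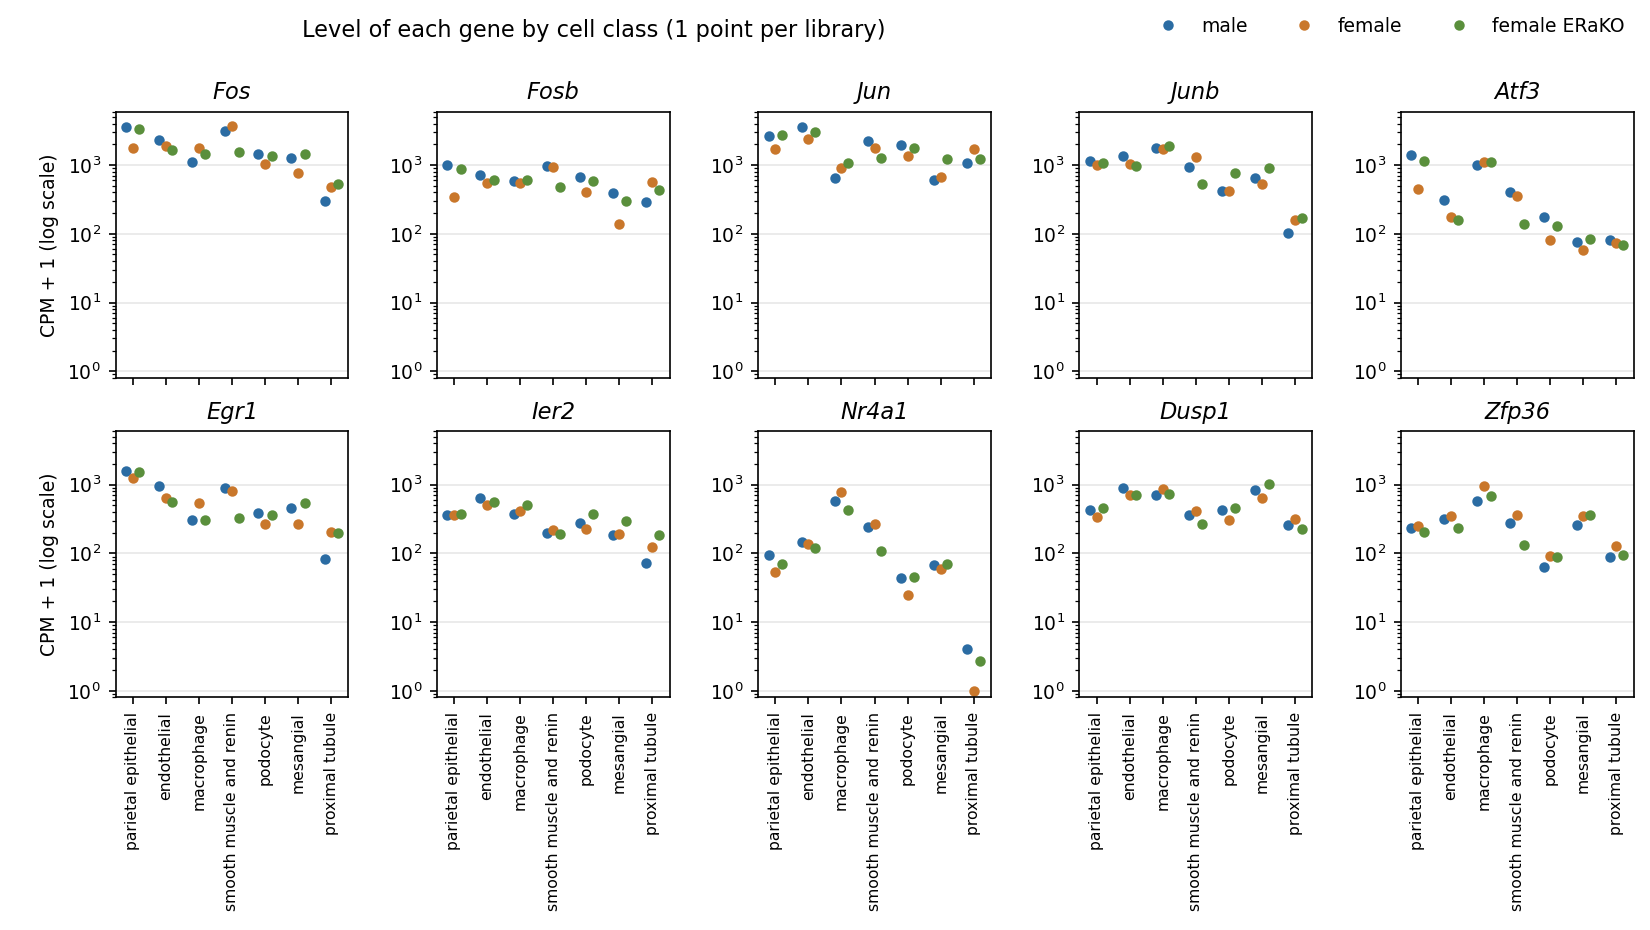
CPM + 1 on a log axis for each gene (panels) and cell class (horizontal axis), with 1 point per library. Macrophages stand above the other classes shown for Junb, Nr4a1 and Zfp36, parietal epithelial cells for Egr1, and Nr4a1 is at 0 to 3.13 CPM in proximal tubule cells.

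Whether a class differed from the mean of the other 6 was tested with edgeR's quasi-likelihood test on 21 sums of UMIs (7 classes in 3 libraries), with the library as a block and Benjamini-Hochberg adjustment over 12623 genes (threshold 0.05). Cells had been grouped by other genes of the same cells, and a large part of all genes passed in every class, so the counts are read beside those shares. In macrophages 6 of 10 genes were higher and 1 was lower, where 25.1% and 24.8% of all genes tested were called. Nr4a1 was higher by 4.04 on the log2 scale (SE 0.20, adjusted p = 4.89e-13), Atf3 by 2.85 (SE 0.20, 1.65e-10), Zfp36 by 2.23 (SE 0.14, 3.12e-11) and Junb by 1.81 (SE 0.19, 9.93e-08). Jun was the gene that was lower there (-0.69, SE 0.22, adjusted p = 0.0128). In endothelial cells Jun, Junb, Ier2, Nr4a1 and Dusp1 were higher (5 of 10, log2 0.59 to 1.07) and 0 were lower, against 32.2% and 22.8% of all genes.

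Parietal epithelial cells were higher for Atf3 (2.04, SE 0.20, adjusted p = 4.38e-08), Egr1 (1.53, SE 0.24, 2.16e-05) and Fos (0.79, SE 0.23, 0.00636) and lower for Dusp1, so 3 of 10 were higher and 1 lower against 27.1% and 20.5% of all genes. Smooth muscle and renin cells were higher for Nr4a1 (1.90, SE 0.22, adjusted p = 3.6e-07), Fos (1.08, SE 0.22, 0.000484) and Fosb (0.63, SE 0.24, 0.0452) and lower for Dusp1 and Ier2, against 23.0% and 18.5%. Mesangial cells were higher for Dusp1 (0.58, SE 0.15, adjusted p = 0.00268) and lower for Fos, Fosb, Jun, Atf3 and Ier2, 1 and 5 of 10 against 24.8% and 19.5%. Podocytes were higher for 0 of 10 and lower for Junb, Atf3, Nr4a1, Dusp1 and Zfp36, against 33.4% and 27.5%, with Zfp36 at -1.79 (SE 0.18, adjusted p = 2.34e-08). Proximal tubule cells were higher for 0 and lower for 8, all but Fosb and Jun, against 31.6% and 33.2%. Junb was lower there by 2.22 (-2.22, SE 0.26, adjusted p = 2.51e-07).

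Of these 40 calls, leaving out the male or the female library lost 6 each and leaving out the female ERaKO library lost 4. Podocyte calls fell from 5 to 3 without the male or without the female library. In smooth muscle and renin cells, 3 higher and 2 lower calls became 2 and 1 without the female library and 7 and 0 without the female ERaKO library. Mesangial cells, with 1 higher and 5 lower, had 1 and 3 without the female library and 0 and 6 without the female ERaKO library. Fosb in smooth muscle and renin cells was the least stable call: it was lost with DESeq2 (adjusted p = 0.0592), without the library block (edgeR, 0.0701) and with a mitochondrial limit of 10% (edgeR, 0.0786). Proximal tubule cells then had 2 genes called higher, Jun (0.78, SE 0.21, edgeR adjusted p = 0.00349) and Fosb (0.66, SE 0.28, 0.0496), and 7 lower, and Dusp1 turned to 0.057.

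The male and the female ERaKO library were each set against the female library. With 1 mouse a group there is no test of these ratios, their exact 95% intervals cover counting error only, and the 2 comparisons share the female library, so their values are given side by side and not as a repeat. A gene counted as apart at 1.5-fold (0.58 on the log2 scale, on CPM + 1), and its background is the share of all genes with at least 20 summed counts that passed the same limit in the same direction. The sum of the 10 genes was at least 1.5-fold apart in 2 of 7 classes for male over female and in 3 of 7 for female ERaKO over female. When each cell was classed on its own, 0 and 1 of 7 were this far apart, the latter being smooth muscle and renin cells (-0.88).

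Smooth muscle and renin cells showed the largest ratio of the sum, with 9669, 10190.0 and 4988.5 CPM and a female ERaKO over female log2 ratio of -1.03 (interval -1.07 to -0.99). In the female ERaKO library 8 of 10 genes were at least 1.5-fold lower and 0 higher, where 10.9% and 7.19% of all genes were, and all 10 were below 0. Zfp36 was at 133 CPM in the female ERaKO and 361 in the female library (log2 ratio -1.43), Atf3 at 140 against 356 (-1.34) and Egr1 at 327 against 817 (-1.32). Junb was at 532 against 1322.5 CPM (-1.31), Nr4a1 at 109 against 266 (-1.28) and Fos at 1549.4 against 3730.5 (-1.27). Jun (-0.50) and Ier2 (-0.21) were the members below the limit of 1.5-fold. After TMM scaling, which centres the bulk of genes, 7 of 10 were lower and all 10 stayed below 0. For male over female the sum ratio was -0.08 (-0.11 to -0.04) and 0 genes were apart in either direction, against 7.43% higher and 7.69% lower of all genes.

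The lower female ERaKO level was present in each of the 3 clusters of that class. Cluster 7, led by Rergl and Rgs5, genes of vascular mural cells, held 10119, 11844 and 5107 CPM. Cluster 9, led by Ren1, the gene for renin, and Akr1b7, held 6742, 5753 and 3792 CPM. Cluster 14, led by the contractile genes Cnn1 and Myh11, held 14287, 11842 and 7349.8 CPM. The renin cluster supplied 110 of 248 cells in the female ERaKO library and 37 of 157 in the female library, and it had the lowest level of the 3 clusters in each library. With the 3 clusters weighted equally, a setting chosen after seeing the data, the log2 ratio was -0.86. Median depth was 5946, 7011 and 6402 UMIs per cell and median mitochondrial share 6.92%, 6.56% and 7.10%, and heat shock genes summed to 7057, 5906 and 5600.1 CPM, and the part of these in the ratio was not tested.

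Parietal epithelial cells were higher in both other libraries than in the female one, with 12538, 7526 and 11782 CPM. The log2 ratio was 0.74 (0.70 to 0.77) for male over female and 0.65 (0.61 to 0.68) for female ERaKO over female. For male over female 5 of 10 genes were at least 1.5-fold higher and 0 lower, against 9.95% and 5.46% of all genes, and 4 of 10 after TMM scaling. For female ERaKO over female 4 were higher and 0 lower, against 10.7% and 6.36%. Atf3 (log2 ratio 1.65 and 1.33), Fosb (1.56 and 1.35), Fos (1.04 and 0.93) and Jun (0.61 and 0.65) passed the limit in both comparisons, and Nr4a1 passed it for male over female (0.83, and 0.36 in the other comparison). Ier2 was at 0.00 and 0.03, and Zfp36 at -0.09 and -0.30. Heat shock genes were also lowest in the female library (9122, 7669 and 8637 CPM), and their part in the difference was not tested. With each cell classed on its own by its marker score, the ratios were 0.51 and 0.29.

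Podocytes were lowest in the female library, at 5883, 4193 and 5961 CPM, with log2 ratios of 0.49 (0.47 to 0.50) and 0.51 (0.49 to 0.52). The male library had 3 of 10 genes at least 1.5-fold higher and 0 lower, against 1.94% and 1.63% of all genes: Atf3 (175 against 79.9 CPM, 1.12), Nr4a1 (0.86) and Fosb (0.72). The female ERaKO library had 5 higher and 0 lower, against 4.81% and 2.81%: Nr4a1 (0.91), Junb (772 against 418 CPM, 0.88), Ier2 (0.75), Atf3 (0.69) and Dusp1 (0.60). Dusp1 dropped under the limit with TMM scaling. Junb was equal in the male and female libraries (log2 ratio 0.00 to 2 decimals, with 418 CPM in each).

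Podocyte clusters differed in level. Cluster 4, led by Cst12, Pla2g7 and Fgl2 and with all 10 podocyte markers raised, held 10389, 9221.5 and 12373 CPM, against 4446, 3081 and 4724 in cluster 0 and 6282, 3939.7 and 5726 in cluster 1. It had 161, 182 and 112 cells. In each library cluster 4 lay above clusters 0 and 1, and in each of these 3 clusters the female value was the lowest. The podocyte class also held cluster 24, with 3, 8 and 11 cells. Atf3 was at 729, 386 and 528 CPM in cluster 4 and at 57.1, 22.9 and 59.7 CPM in cluster 0. Without cluster 4, a setting chosen after seeing the data, podocytes held 5286, 3521 and 5120.5 CPM and the log2 ratios were 0.59 and 0.54.

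**Figure D3:**
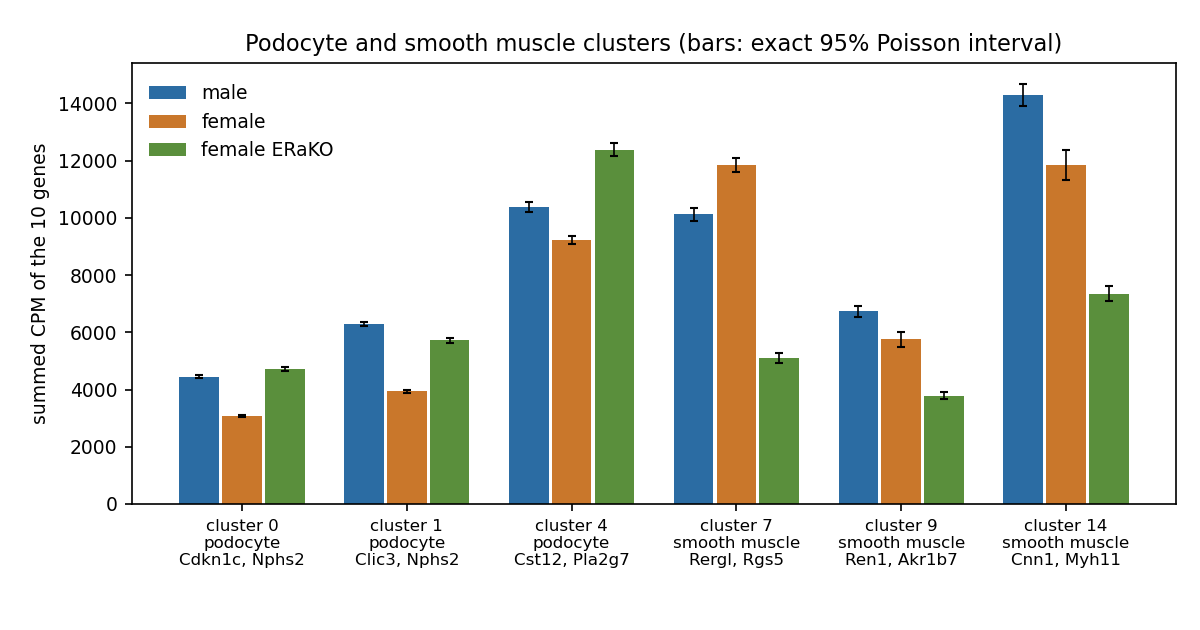
Summed CPM of the 10 genes in 3 podocyte and 3 smooth muscle and renin clusters, with 1 bar per library and exact 95% Poisson intervals. The female bar is lowest in each podocyte cluster, and the female ERaKO bar is lowest in each smooth muscle cluster.

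Mesangial cells rested on 51 female cells. Their sums were 4791, 3640.1 and 6273 CPM, with log2 ratios of 0.40 (0.32 to 0.47) and 0.79 (0.71 to 0.86). In the female ERaKO library 7 of 10 genes were at least 1.5-fold higher and 0 lower, against 11.2% and 7.81% of all genes, and all 10 were above 0. Fosb was at 303 CPM in the female ERaKO and 136 in the female library (1.15), Egr1 at 549 against 264 (1.05), Fos at 1458 against 760 (0.94) and Jun at 1238 against 664 (0.90). In the male library Fosb (1.53), Egr1 (0.79) and Fos (0.74) were higher, 3 of 10 with 0 lower, against 9.38% and 9.46%. Jun was at -0.13 there. With each cell classed on its own, the female ERaKO over female ratio of the sum was 0.52, under the 1.5-fold limit.

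In endothelial cells the male library was higher (0.41, interval 0.40 to 0.43) with 2 of 10 genes past the limit, Atf3 (0.84) and Jun (0.59), and 0 lower, against 2.89% and 3.19% of all genes. For female ERaKO over female the sum ratio was 0.02, and -0.03 after TMM scaling, with 0 of 10 apart in either direction, against 4.68% and 4.09%. TMM scaling took Zfp36 past the limit (1 of 10 lower) and Dusp1 below 0. Among macrophages the male library was lower (-0.34, -0.39 to -0.29). There Fos, Egr1 and Zfp36 were lower (3 of 10) and 0 higher, against 19.6% and 5.98%, and the median of all genes was itself at -0.14. TMM scaling moved these ratios up by 0.19, left 1 of 10 lower and turned Atf3 and Ier2 above 0. For female ERaKO over female the macrophage ratio was -0.14, with Egr1 (-0.82) and Nr4a1 (-0.88) lower, 2 of 10 and 0 higher, against 15.2% and 10.4%.

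Proximal tubule values rest on different cells in each library. Of the 96 male cells 95 came from cluster 19, led by Slc7a13, and the female and female ERaKO cells came from cluster 13 (41 and 96 cells, led by Slc7a12) and cluster 17 (42 and 79 cells, led by Pck1). The sum ratios were -0.67 (-0.73 to -0.61) and -0.27 (-0.31 to -0.22). For male over female 6 of 9 genes with enough counts were lower and 0 higher, against 13.6% and 19.9% of all genes, and for female ERaKO over female 0 were apart, against 10.9% lower and 8.66% higher. With TMM scaling these counts were 7 lower and 1 higher. The summed level was 2429 and 2205 CPM in cluster 13 and 5991 and 5777 in cluster 17, against 2405.5 in the male cells of cluster 19. With each cell classed on its own the male over female ratio was 0.06, and with a mitochondrial limit of 10% it was -1.19. Median mitochondrial shares were 9.20%, 15.8% and 13.0%, and their part was not tested.

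Zfp36 was lower in the male than in the female library in 7 of 7 classes, with log2 ratios from -0.70 in macrophages to -0.09 in parietal epithelial cells and with counting intervals below 0 in 6 of them, and TMM scaling left the direction in all 7. In podocytes it was at 62.2, 91.2 and 87.0 CPM, while Fos (1458, 1023 and 1375 CPM) and Jun (1970.5, 1360.4 and 1775 CPM) had their lowest value in the female library. For female ERaKO over female Zfp36 was lower in 6 of 7 classes, with counting intervals below 0 in 5 of them. The exception was mesangial cells at 0.06, and podocytes were at -0.07 (-0.20 to 0.06). The share of all genes lower in 6 of 7 classes was not determined for this comparison. Of 4905 genes with enough counts in all 7 classes, 3.02% were lower and 3.61% higher in the male library in every class. These 7 ratios share 1 pair of mice.

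**Figure D4:**
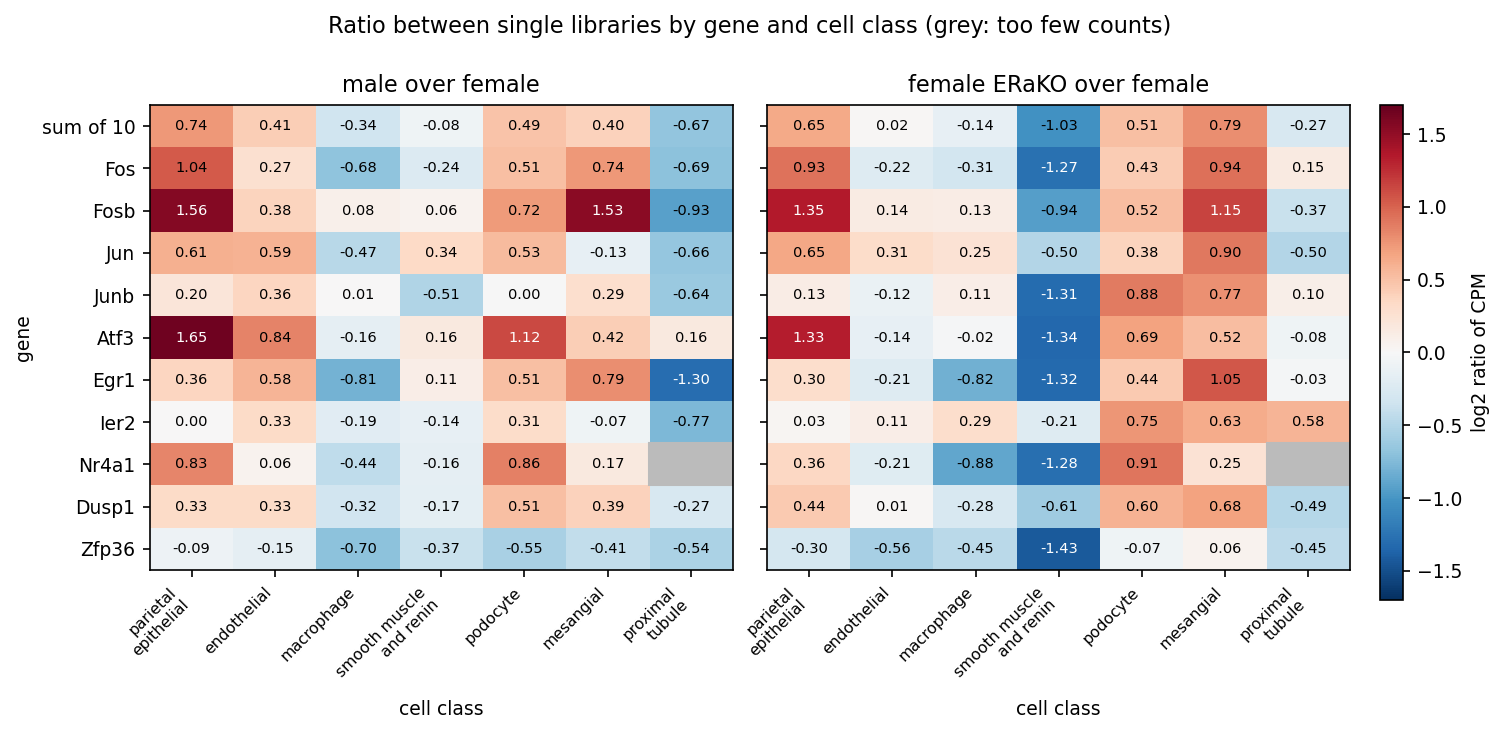
Log2 ratios of CPM + 1 (sum of 10: of CPM) by gene and cell class for male over female (left) and female ERaKO over female (right), red for higher and blue for lower. The smooth muscle and renin column is blue for all genes on the right, and the Zfp36 row is blue in all classes on the left; proximal tubule Nr4a1 had too few counts.

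Over single cells, each cell was thinned to 4000 UMIs to put cells at 1 depth. No cell was lost, since the lowest depth was 4286 UMIs. The thinned sum still correlated with a cell's full depth, at 0.27, 0.19 and 0.34 (Spearman) in parietal epithelial cells, 0.14, 0.12 and 0.02 in podocytes, and between -0.12 and 0.27 in the other 5 classes, and its part in the spread was not tested. Podocytes held a median of 15, 8 and 20 UMIs of the 10 genes, with a 10th percentile of 1 in each library and a 90th of 55.2, 38.3 and 50 UMIs. The tenth of podocytes with the most UMIs carried 36.3%, 42.4% and 32.4% of the total, and 83, 149 and 43 podocytes held none. Endothelial cells had medians of 37.5, 25 and 30 UMIs and only 2 to 3 cells with none, and macrophages had 25, 29 and 27 with no cell at 0. Proximal tubule cells had medians of 2, 8 and 5 UMIs, and 26, 14 and 40 cells held none. Smooth muscle and renin cells had medians of 16, 29 and 7 UMIs and 90th percentiles of 111, 94.6 and 51, so the female ERaKO value was lower at both the middle and the top of the cells.

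**Figure D5:**
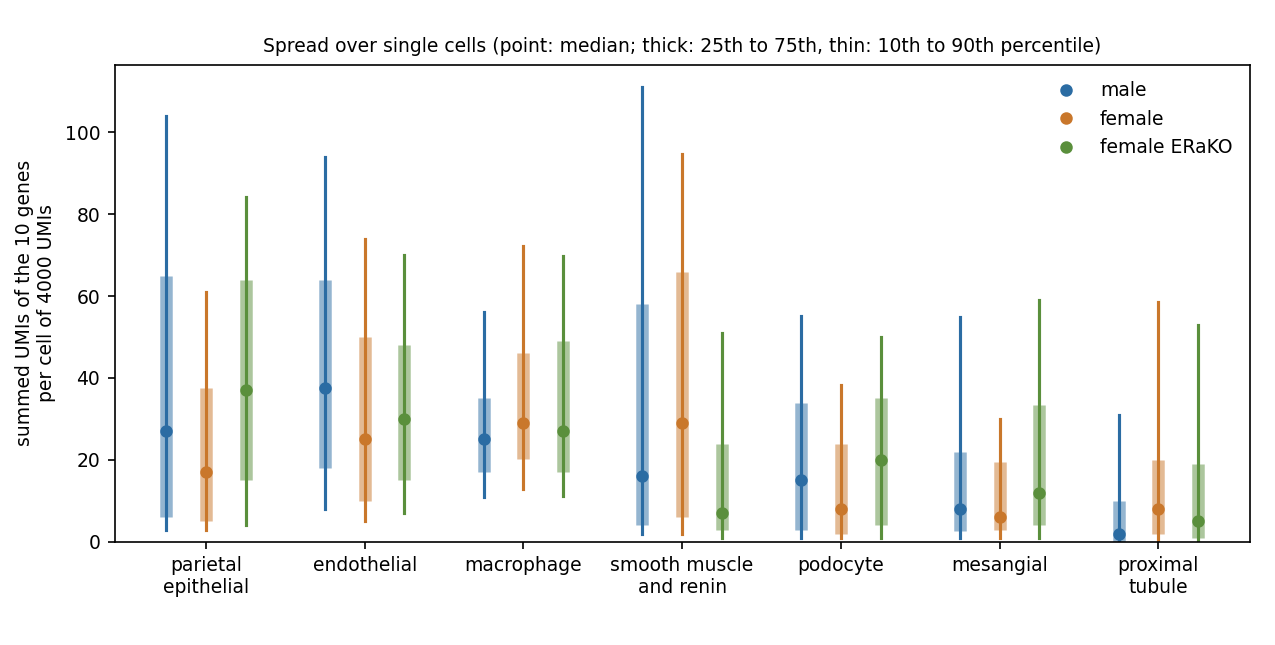
Summed UMIs of the 10 genes per cell of 4000 UMIs, by cell class and library, as the median (point), the 25th to 75th percentile (thick line) and the 10th to 90th (thin line). The podocyte medians are 15, 8 and 20 UMIs, and in every class the 10th to 90th percentile range of each library is wider than the distance between the library medians.

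The share of cells with at least 1 UMI differed between genes. In podocytes Jun was found in 89.6%, 82.4% and 89.7% of cells, Fos in 65.9%, 53.9% and 66.3%, Zfp36 in 15.8%, 19.8% and 23.6%, and Nr4a1 in 11% (exact 95% interval 9.36 to 12.8), 6.79% (5.57 to 8.17) and 12.6% (10.5 to 14.9). Nr4a1 was found in 74.7%, 90.0% and 77.8% of macrophages and in 2, 0 and 2 proximal tubule cells (2.08%, 0 of 85 and 1.13%), the lowest shares of any gene in the 7 classes. The proximal tubule cells were the deeper ones (median 10974 to 15414 UMIs, against 7378 to 9182 in podocytes). No class known from other data to lack any of the 10 genes was available as a background. The low Nr4a1 share of proximal tubule cells comes from these same data. Without thinning the podocyte shares of Nr4a1 were 18.5%, 13.0% and 21.5%. Junb was found in 96.7%, 98.6% and 96.3% of macrophages and Atf3 in 72.5%, 78.6% and 81.5%.

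The genes varied together from cell to cell. Over thinned podocytes the median Spearman correlation of the 45 gene pairs was 0.45, 0.37 and 0.43, and all 45 were above 0 in each library. The closest pair was Fos and Jun in the male and female libraries (0.79 and 0.75) and Fos and Junb in the female ERaKO library (0.75). Fos and Egr1 correlated at 0.73, 0.64 and 0.64 in endothelial cells and at 0.79, 0.77 and 0.75 in parietal epithelial cells. The sum correlated with mitochondrial UMIs at -0.11, -0.13 and -0.12 in podocytes and at -0.23, -0.33 and -0.26 in parietal epithelial cells. With heat shock UMIs the podocyte values were 0.18, 0.09 and 0.03, and those of endothelial cells 0.23, 0.33 and 0.17. Cells of a library share their preparation, so these are descriptions with no p.

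Other genes with a like pattern were ranked by fixed rules. Over the 21 class and library sums, the closest to the summed level among 5309 genes were Tbc1d4 (Pearson r = 0.91), Btg2 (0.86), Baz2b (0.85), Bclaf1 (0.85) and Ppp1r15a (0.85). The points share libraries and cells. Over single podocytes, genes with high values (lowest of 3 libraries) were Btg2 (Spearman 0.69), Jund (0.48), Klf6 (0.27) and Gas1 (0.20), among 2571 genes. In endothelial cells they were Btg2 (0.57), Jund (0.54), Socs3 (0.52), Ier3 (0.46) and Ppp1r15a (0.45), among 2739 genes. Btg2, an antiproliferative gene, and Jund, a further AP-1 subunit, headed both lists of cells.

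A list of 45 other immediate early genes was described beside the 10. Its most abundant members were Jund (mean 942 CPM over the 21 sums), Ctgf (742 CPM) and Klf2 (719 CPM), a flow-induced factor of endothelial cells. Of 41 tested, edgeR called 29 higher and 3 lower in macrophages, 24 and 5 in endothelial cells, 20 and 4 in parietal epithelial cells, and 1 and 30 in podocytes, with medians of 2.08, 0.67, 0.42 and -1.65 on the log2 scale. Of all genes 25.1% and 24.8%, 32.2% and 22.8%, 27.1% and 20.5%, and 33.4% and 27.5% were called higher and lower in these classes, with medians of -0.19, 0.04, -0.01 and -0.01. In the other classes the list was mixed or lower, with 10 higher and 16 lower in mesangial cells (24.8% and 19.5% of all genes), 12 and 11 in smooth muscle and renin cells (23.0% and 18.5%) and 8 and 24 in proximal tubule cells (31.6% and 33.2%). In smooth muscle and renin cells of the female ERaKO library 21 of 37 were at least 1.5-fold lower and 1 higher than in the female library, with a median log2 ratio of -0.67 against -0.07 for all genes, of which 10.9% were lower and 7.19% higher. Nr4a2, a receptor of the Nr4a family, had the lowest ratio there, with 31.9 against 156 CPM (-2.25). In podocytes of that library 6 of 40 were higher and 1 lower, against 4.81% and 2.81% of all genes, with a median of 0.30 against 0.01. The highest ratio, that of Sgk1 in podocytes (12.5 against 3.62 CPM, 1.55), rests on low levels. In the male library the extremes were Nfkbia in parietal epithelial cells (978 against 373 CPM, 1.39) and Cebpd in proximal tubule cells (7.03 against 204 CPM, -4.67).

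The list of 15 heat shock genes, which respond to protein damage, was led by Hsp90ab1, Hspa8 and Hspa5 (means 1893, 1364 and 798 CPM). For female ERaKO over female 1 of 15 was lower and 0 higher in smooth muscle and renin cells (median 0.01, all genes -0.07, of which 10.9% were lower and 7.19% higher) and 1 and 0 in podocytes (median -0.05, all genes 0.01, 2.81% and 4.81%), the classes in which the immediate early sums were -1.03 and 0.51. For male over female the medians were 0.35 in endothelial and 0.34 in parietal epithelial cells, with 3 of 15 higher and 0 lower in each. All genes had medians of 0.00 and 0.07, with 2.89% higher and 3.19% lower in endothelial and 9.95% and 5.46% in parietal epithelial cells. Hspa1a was the extreme gene, with 305 against 55.4 CPM in male macrophages (2.44), 83.3 against 25.2 CPM in female ERaKO parietal epithelial cells (1.69) and 9.62 against 69.0 CPM in female ERaKO proximal tubule cells (-2.72). Cryab was lowest in male proximal tubule cells (263 against 732 CPM, -1.47).

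The factors and kinases that act upstream were 23 listed genes, of which 22 had rows. Crebbp (121 CPM), Map2k2 (115 CPM) and Mapk3 (101 CPM) were the most abundant. How many were 1.5-fold apart differed between classes. For male over female, 6 of 19 were lower and 0 higher in macrophages (19.6% and 5.98% of all genes). In proximal tubule cells 4 of 20 were higher and 3 lower (19.9% and 13.6%), and in parietal epithelial cells 4 of 22 were higher and 0 lower (9.95% and 5.46%). Endothelial cells had 0 of 21 apart in either comparison (male 2.89% and 3.19%, female ERaKO 4.68% and 4.09%). In smooth muscle and renin cells of the female ERaKO library 1 of 20 was higher and 1 lower (7.19% and 10.9% of all genes), with a median of -0.19 against -0.07, and 18 of 20 were below 0. Between classes, 15 of 21 tested were lower and 3 higher in proximal tubule cells (33.2% and 31.6% of all genes), and 11 were higher and 5 lower in endothelial cells (32.2% and 22.8%). The extreme ratios were those of Map2k2 (0.85) in male smooth muscle and renin cells, Rps6ka1 (1.06) in female ERaKO parietal epithelial cells and Ep300 in proximal tubule cells (-0.64 and -0.98). Of 13 genes of AU-rich decay, Zfp36l1 (397 CPM), Zfp36 (289 CPM) and Zfp36l2 (195 CPM) were the most abundant, and 10 were lower and 0 higher in proximal tubule cells, against 33.2% and 31.6% of all genes. Zfp36l1 was lowest in male macrophages (-1.27) and Elavl1 highest in male proximal tubule cells (1.02), and in female ERaKO smooth muscle and renin cells Zfp36 was lowest (-1.43) and Tia1 highest (0.72).

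Symbols that share a locus limit some values. Jun overlaps Junos, Zfp36 overlaps Gm44710, Junb overlaps Prdx2 and Dusp1 overlaps Ergic1 and Gm8225, all on the opposite strand and all with rows of their own in the tables, and whether the counting used strand is not given in the sources used here.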

How the data were processed

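The files are gene by barcode matrices of UMI counts for 3 droplet (10x 3′) libraries of glomerular cells. Per the submitters' processing notes, which list Cell Ranger 6.1.2, STAR 2.7.5a and mm10, the authors aligned and counted the reads. The deposited counts were not normalized. Barcodes with under 500 genes or over 25% mitochondrial UMIs were left out, as were cells with a Scrublet score above 0.2, because the automatic threshold called 4 female cells. After the filters the median depth was 7323.5 to 8831.5 UMIs per cell. Cells were clustered with scanpy 1.11.5 (2000 variable genes without the immediate early, heat shock, mitochondrial, Y chromosome and reporter genes, 30 principal components, 15 neighbours, Leiden resolution 1), giving 26 clusters that were named from 16 marker lists. Of X chromosome genes only Xist, Tsix, Eif2s3x, Kdm6a, Kdm5c and Ddx3x were left out for their chromosome, and the others stayed eligible. A name needed a score of at least 1, a lead of 0.75 and 3 markers 2-fold up. These minima, the doublet limit and leaving the erythroid list out as a rival were set after the clusters were seen, and 3.26%, 1.52% and 3.93% of cells stayed unnamed.

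Counts were summed per class and library. Class tests used edgeR 4.0.16 (quasi-likelihood, filterByExpr, TMM, library block), tested on simulated data, with DESeq2 1.42.0 as an alternative. Each SE given with an edgeR log2 value was worked back from the test. It is the size of that value over the square root of the quasi-likelihood F, and not a fitted standard error. Classes of 1 mouse share its library, and cells were classed on other genes of the same cells, so adjusted p-values order the genes more than they measure evidence. Ratios between libraries have no test, since each group is 1 mouse, and their exact 95% Poisson intervals cover counting error only, as do the exact binomial intervals of shares. The limit that a count of 0 allows is 3 counts per library.

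The members and gene lists were chosen with earlier results of these data known. All 10 members are named. Other genes are named where they ranked in the first 5 for likeness to the summed members (over class sums, mean of at least 30 CPM, or over podocytes or endothelial cells, detected in at least 20% of cells of each library). In podocytes 1 gene that this rule names is not reported here. From each further list the 3 most abundant genes and the extreme ratio in each direction and comparison are named, and clusters by leading genes. Promoters are from RefSeq (GRCm38.p6), without those of chromosome 18.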

Additional observations from a re-analysis of the deposited data

Results flagged for a closer look

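The summed level of the 10 genes stood at least 1.5-fold apart between libraries in some classes while other classes of the same libraries lay on the other side of 0, and these differences between classes were not tested. For male over female the log2 ratio was 0.74 in parietal epithelial cells and -0.67 in proximal tubule cells, the class whose male cells came from another cluster. For female ERaKO over female it was 0.79 in mesangial cells and 0.65 in parietal epithelial cells, against -1.03 in smooth muscle and renin cells. With each cell classed on its own by its marker score, these 5 values were 0.51, 0.06, 0.52, 0.29 and -0.88, so that the last alone stayed past 1.5-fold. The 2 comparisons share the female library.

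Barcodes left out for a mitochondrial share over 25% also held these RNAs. In the male library 890 such barcodes held 4267 (4266.8) member UMIs per 1000000 non-mitochondrial UMIs, against 8981 in the kept cells. In the female library the values were 3739 and 6444, and in the female ERaKO library 3294.5 and 8012. Atf3 was at 531 in left-out barcodes and 554 in kept cells of the male library, 298 and 232 in the female and 213 and 422 in the female ERaKO library. The cell types of the left-out barcodes were not determined.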

How the results depend on the processing

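With each cell classed on its own by its marker score, the mean proximal tubule level was 4710.4 CPM in place of 3082 CPM, podocyte log2 ratios were 0.52 (male over female) and 0.48 (female ERaKO over female), the male over female proximal tubule ratio turned to 0.06 (0.059), and 0 and 1 of 7 classes were 1.5-fold apart, in place of 2 and 3. With a mitochondrial limit of 10% the values were 5052 CPM, 0.57 and 0.54, and Dusp1 in proximal tubule cells turned to 0.057 (edgeR log2). The male over female podocyte ratio was 0.60 with doublets kept, 0.46 with TMM scaling and 0.59 without cluster 4, and the female ERaKO over female one was 0.53 as a mean over cells, 0.48 with TMM scaling and 0.54 without cluster 4. Directions of these podocyte ratios held under each of these settings. Classes were rebuilt under some settings, so the cells differ.

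Of 40 edgeR calls, 38 were kept with DESeq2, 40 with DESeq2 size factors, 40 with no filter on low counts and 39 with no library block. Endothelial calls were 8 with no filter on low counts, in place of 5. Leaving out 1 library gave 3 to 5 podocyte calls and 3 to 7 calls in smooth muscle and renin cells. No paired analysis was possible because each group has 1 library, so between groups there are no pairs, and the library block pairs cell classes within a mouse.

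For single podocytes (male, female, female ERaKO), the median share with a UMI over the 10 genes was 42.4%, 38% and 54.7%. It was 35.3%, 31.8% and 44.4% when thinned to 2500 UMIs and 54.1%, 50.8% and 64.3% with no thinning. With the 10% limit the correlation with mitochondrial UMIs was -0.083, -0.10 and -0.045 (female -0.12 when thinned to 2500), that with heat shock UMIs was -0.029 in the female ERaKO library, and the 10% of cells with the most UMIs of these genes held 35.1% (female) and 26.6% (female ERaKO) of them. The causes were not tested. Counts limit the smallest classes most, the 51 female mesangial cells and the 54 female ERaKO macrophages.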

Other observations

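Classes with fewer than 30 cells in a library, or clusters without a name, were outside the comparisons. Fibroblasts (33, 26 and 33 cells) had the highest summed levels of all named classes in each library, with 15011, 11852 and 17464 CPM. Their Egr1 (1907, 1625 and 1971 CPM) lay above that of parietal epithelial cells in each library. Their Jun (4010, 2745 and 4652 CPM) lay above that of endothelial cells in each library. Principal cells held 11102, 10050.0 and 9148 CPM and intercalated cells 12828, 9165 and 7929 CPM. Zfp36 in principal cells was at 539, 689 and 313 CPM, and its female value lay within the range of macrophages. T and NK cells held 5517, 4978 and 4511 CPM, of which Junb made up 2253.5, 2020.5 and 1326 CPM. These Junb values lay above those of macrophages in the male and female libraries and below in the female ERaKO library. Distal convoluted tubule cells (36, 8 and 18) held 2407, 3406.5 and 1969 CPM, and thick ascending limb cells (18, 8 and 23) held 8693, 8310 and 4584 CPM. Atf3 was at 2010, 834 and 1056.5 CPM in intercalated cells and 1054, 542 and 698 CPM in fibroblasts. It was at 1066, 755 and 259 CPM in thick ascending limb cells and 678, 345 and 264 CPM in principal cells. In T and NK and distal convoluted tubule cells Atf3 lay between 10.9 and 110 CPM. Cluster 11, which mixes proximal tubule and parietal epithelial genes and has no name, held 7819, 8617 and 8772 CPM.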
